A study of Mus musculus with 12 samples.

Results

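The comparison of E16.5 β-catenin KO with wildtype pancreas holds 6 of the 12 pancreata in the series, taken by their array names alone: 4 KO (KO_541J, KO_541L, KO_591C and KO_591D) and 2 wildtype (WT_622A and WT_628G). Each array, an Affymetrix MOE430 2.0, measured the RNA of 1 embryonic pancreas after 2 rounds of amplification. All embryos descended from crosses between Pdx1Cre/+; beta-catenin flox/+ mice. The KO embryos were Pdx1Cre/+; beta-catenin flox/flox. Which of the other genotypes of this cross the animals called wildtype carried is not given in the sources used here. Cre is driven by Pdx1, so that the floxed gene can be lost only in the pancreatic epithelium and its descendants, and the study considers Cre expression likely to be mosaic. Mesenchyme, vessels, nerves and blood cells of the same pancreas keep the gene. The KO arrays share a number in their names in pairs (J with L, and C with D), and what that number marks is not stated.

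β-Catenin (Ctnnb1) joins E-cadherin to the cytoskeleton at cell contacts and, when Wnt ligands bind their receptors, enters the nucleus and activates genes with Tcf and Lef factors. The exocrine pancreas arises from branching epithelium whose acinar cells fill with zymogen, and such cells carry a large endoplasmic reticulum (ER) with the machinery that translocates, folds, glycosylates and exports secreted proteins. Around the epithelium lie mesenchyme, vessels and nerves, and within it the endocrine cells that later form islets.

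The values are ratios to the mean of the 2 wildtype pancreata of E16.5, so that 1 is that mean. A log2 fold change is the mean log2 ratio of the KO minus that of the wildtype, and a gene "rose" or "fell" only where its p from limma was under 0.05 after Benjamini-Hochberg adjustment across the 45037 probe sets tested. How abundant a transcript was cannot be read from ratios, so the pancreas label could not be checked against the level of its markers. In RNA of a whole organ, fewer cells of a type and less RNA per cell cannot be told apart.

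The 6 arrays were not alike apart from genotype. KO_591D had 37 probe sets above a ratio of 2, while the other 3 KO had 375 to 1198 and neither wildtype had any (0). Its number below a ratio of 0.5 was 515, where the remaining KO had 485 to 1016 and the wildtype 38 and 46. The digestive enzymes, the known deficit of these pancreata, had a median log2 ratio of -3.20 in KO_541J, -3.92 in KO_541L, -1.98 in KO_591C and -1.62 in KO_591D, and on the 1 probe set taken per gene 10 of 18 fell. The 2 wildtype pancreata differed on the array's Gapdh control probe sets, with a log2 ratio at the 3′ end of 0.56 in WT_622A and -0.94 in WT_628G, against -1.02 to -0.75 in the KO. The part of these differences in the results was not tested.

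At E16.5, 361 probe sets (0.802%) rose and 821 (1.82%) fell, and 888 of 18193 named genes (4.88%) had at least 1 probe set that did. The median log2 fold change of those that rose was 0.77 and of those that fell -0.93. At least 2-fold changes were seen on 98 of the probe sets that rose and 363 of those that fell. The 4 KO lay above both wildtype on 14.5% of all probe sets and below both on 11.1%. Leaving out KO_591D gave 1572 that rose and 1290 that fell. Centring each array on its median gave 200 and 773, so that the share that rose went from 30.5% to 20.6%. On the 1 probe set taken per gene by its name, 160 genes (0.879%) rose and 392 (2.15%) fell, with a median log2 fold change over all genes of 0.03. On that probe set 57.5% of all genes were higher. At an unadjusted limma p under 0.05, 9.58% were higher and 8.84% lower. Each list count below is to be read beside these shares.

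Beyond the digestive enzymes, the fall with the smallest p was in Zg16. Zg16, a lectin of the zymogen granule membrane, stood at ratios of 0.0106, 0.01, 0.0129 and 0.0152 in KO_541J, KO_541L, KO_591C and KO_591D and at 0.601 and 1.40 in WT_622A and WT_628G. That is 76.3-fold lower, with KO_541L at the lowest ratio the deposited values hold (log2 fold change -6.25, SE 0.27, adjusted p = 1.11e-06). All 3 of its probe sets fell, but by unlike amounts. The probe set taken by name was 6.84-fold lower (log2 fold change -2.77) and the third 42.6-fold (log2 fold change -5.41). The leading and the third probe set are named _s_at and _x_at, as are sets that can match several transcripts. Aldh1l1, an enzyme that oxidises formyl-tetrahydrofolate, stood at 0.115, 0.109, 0.184 and 0.185 in the KO and 1.16 and 0.845 in the wildtype (log2 fold change -2.78, SE 0.23, adjusted p = 0.000157). Its other probe set did not pass (log2 fold change -0.21). Gstt2, a glutathione transferase, stood at 0.322, 0.326, 0.398 and 0.414 in the KO and 1.12 and 0.884 in the wildtype (log2 fold change -1.45, adjusted p = 0.000508). These genes were picked for a small p and for KO values beyond both wildtype, so neither property is a finding.

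Arhgap26, a GTPase-activating protein, stood at 0.2, 0.211, 0.270 and 0.218 in the KO and at 0.999 and 1.0 in the wildtype (log2 fold change -2.16, SE 0.13, adjusted p = 1.48e-05). Of its 4 probe sets 2 fell and the others had log2 fold changes of 0.16 and 0.28. Slc16a6, a monocarboxylate transporter with 1 probe set, stood at 0.266, 0.274, 0.318 and 0.321 in the KO and 0.970 and 1.03 in the wildtype (log2 fold change -1.77, adjusted p = 1.69e-05). Surf4, a receptor that loads soluble cargo into vesicles at the ER, stood at 0.437, 0.452, 0.482 and 0.486 in the KO and 1.11 and 0.889 in the wildtype (log2 fold change -1.10, adjusted p = 0.000508). Of the 5 probe sets of Surf4 another fell (log2 fold change -0.77) and the other 3 were lower without passing.

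Ang, the secreted ribonuclease angiogenin, fell on all 3 of its probe sets, with log2 fold changes of -2.06, -3.35 and -3.82. On the first the KO stood at 0.216, 0.210, 0.215 and 0.292, and on the last at 0.175, 0.101, 0.0411 and 0.0300, so the order of the 4 KO differed between probe sets of 1 gene. Sostdc1, a secreted protein that binds BMP and interferes with Wnt receptors, stood at 0.365, 0.290, 0.272 and 0.341 in the KO and 0.882 and 1.12 in the wildtype (log2 fold change -1.66, SE 0.16, adjusted p = 0.000518), and its other probe set fell too (log2 fold change -1.29). Hif3a, a hypoxia-inducible factor, fell on 2 of 6 probe sets (log2 fold changes -1.05 and -1.21), with the other 4 between -0.29 and 0.02. The 15 falls named by p also hold Lars2 (a mitochondrial leucyl-tRNA synthetase), Tma16, Fam234a, Lztfl1 and the uncharacterised 2010315B03Rik and 4933438K21Rik. Their log2 fold changes span -6.25 to -1.05. Another probe set of the same gene fell in 7 of the 15, and 5 of the 15 have only 1.

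**Figure D1:**
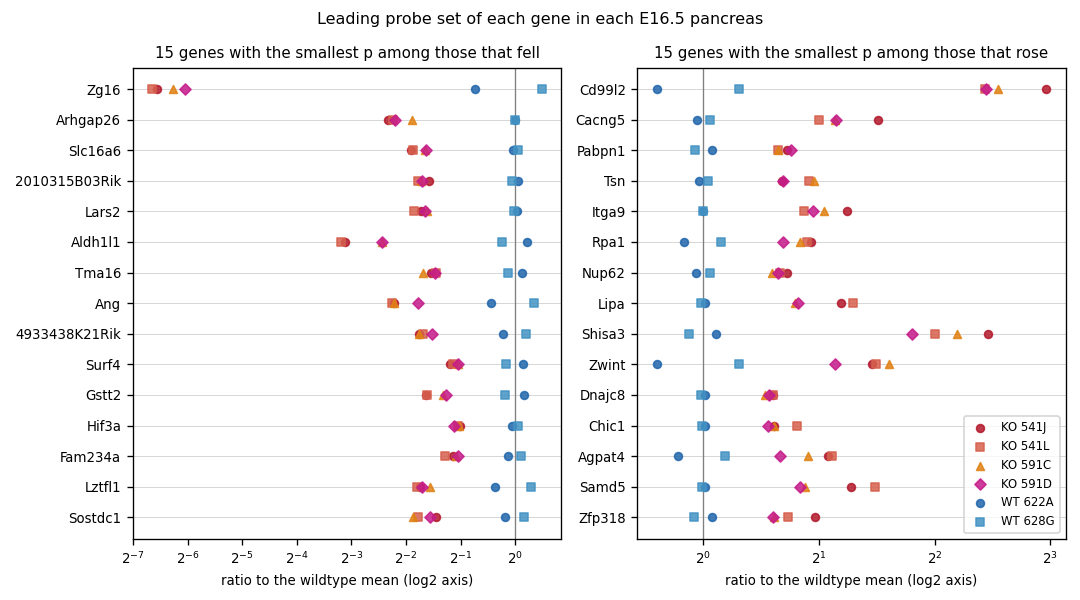
Ratio to the wildtype mean (log2 axis) of the leading probe set of the 15 genes with the smallest p in each direction, digestive enzymes left out, 1 point per E16.5 pancreas. By the rule that chose them, all 4 KO lie beyond both wildtype. Zg16 is lowest, at 0.01 to 0.0152 in the KO, and Cd99l2 highest, at 5.42 to 7.80.

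The 15 rises with the smallest p had log2 fold changes of 0.58 to 2.64. Cd99l2, a cell-surface relative of CD99, led them on 1 probe set, at 7.80, 5.42, 5.86 and 5.43 in the KO and 0.757 and 1.24 in the wildtype (log2 fold change 2.64, SE 0.21, adjusted p = 0.000157). Shisa3, an antagonist of Wnt and Fgf receptor maturation, rose on both of its probe sets, at 5.52, 4.00, 4.56 and 3.50 in the KO on the higher one and 1.08 and 0.920 in the wildtype (log2 fold change 2.12, SE 0.31, adjusted p = 0.00607). Cacng5, a calcium channel gamma subunit, stood at 2.84, 2.00, 2.20 and 2.21 in the KO and 0.965 and 1.04 in the wildtype (log2 fold change 1.20, adjusted p = 0.001), while its other probe set did not pass (log2 fold change 0.13).

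Agreement between probe sets varied among the other rises. Zwint, a kinetochore protein, stood at 2.74, 2.82, 3.05 and 2.20 in the KO and 0.759 and 1.24 in the wildtype (log2 fold change 1.47, adjusted p = 0.00607), but only 1 of its 7 probe sets passed. On the others the log2 fold changes were 1.07 (adjusted p = 0.0525), 0.53, 0.51, 0.12, 0.03 and -0.16. Rpa1, a subunit of the single-stranded DNA binding complex, rose on 1 of 2 probe sets (log2 fold change 0.85, adjusted p = 0.00475). Nup62, a nuclear pore protein, rose on 3 of 5, at log2 fold changes of 0.61, 0.62 and 0.66, and on these 3 all KO ratios lay between 1.48 and 1.65. Lipa, the lysosomal acid lipase, stood at 2.28, 2.45, 1.73 and 1.76 in the KO and 1.01 and 0.985 in the wildtype (log2 fold change 1.02, adjusted p = 0.00544), and its other 2 probe sets did not pass (log2 fold changes 0.51 and 0.48). Itga9, the integrin alpha 9 chain, rose on 1 of 3 (log2 fold change 1.03, adjusted p = 0.00437). The remaining 7 are Pabpn1, Tsn, Dnajc8, Chic1, Agpat4, Samd5 and Zfp318. Without WT_622A, 11 of the 15 rises passed, and 15 of the 15 falls.

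Agreement between the probe sets of a gene was examined for rises and falls in turn. Of the 305 genes with a probe set that rose, 234 have more than 1 probe set, and another rose too in 23 of these (9.83%). Of the 584 genes with a probe set that fell, 386 have more than 1, and another fell too in 88 (22.8%), or 85 of 381 (22.3%) without the digestive enzymes. The probe sets beside the leading one had the same sign in 79.1% of 513 cases for rises and 79.6% of 789 for falls, where 57.2% of all probe sets with 1 gene symbol were higher in the KO and 42.8% lower. They lay beyond 0.5 on the log2 scale in the same direction in 23.6% and 33.1%, against 5.75% and 5.55% of all such probe sets. Their median log2 fold change in the direction of the call was 0.17 for rises and 0.24 for falls, and the leading probe set itself was picked for its p. Without probe sets named _x_at or _s_at, which can match several transcripts, another passed too in 6.63% and 18.5%. The difference between rises and falls was not tested, because probe sets of a gene share its transcripts.

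**Figure D2:**
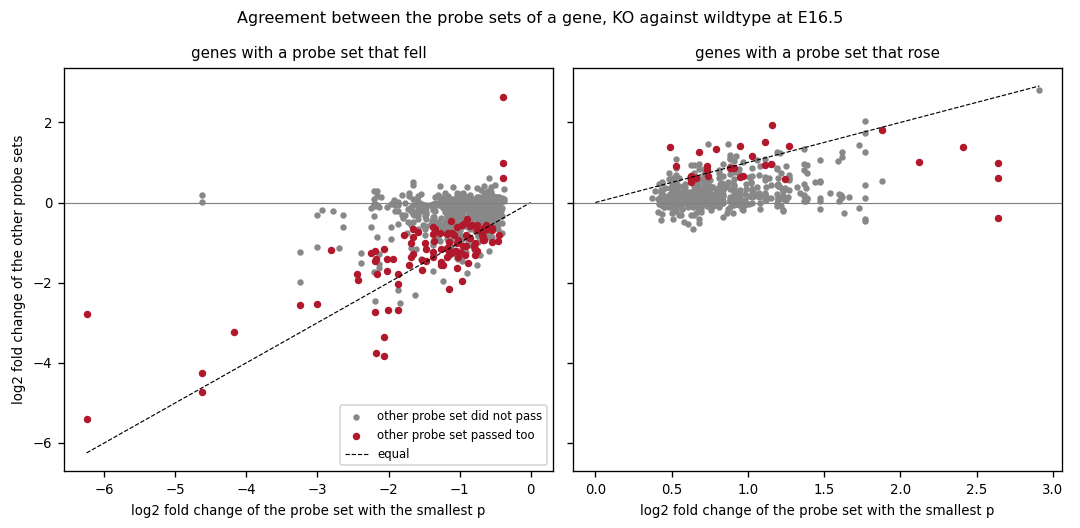
Log2 fold change at E16.5 of the other probe sets of a gene (vertical axis) against that of the gene's probe set with the smallest p (horizontal axis), for genes with a probe set that fell (left) or rose (right). Most other probe sets lie on the same side of 0 and between 0 and the dashed line of equality. Red points are other probe sets that passed as well, in 88 of 386 genes that fell and 23 of 234 that rose.

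Only 5 genes had 3 or more probe sets that all passed in 1 direction, a fall in each: Zg16, Ang, Epb41l4b, Rps27l and Pigo. In all but Epb41l4b some of these probe sets are named _x_at or _s_at. Epb41l4b, a FERM-domain protein of epithelia, stood at 0.185, 0.156, 0.240 and 0.336 in the KO and 0.904 and 1.10 in the wildtype on the middle one of its probe sets (log2 fold change -2.18, SE 0.24, adjusted p = 0.00113), with -1.42 and -3.75 on the other 2. Rps27l, a ribosomal protein homologue, fell by 0.79, 1.01 and 1.15 on the log2 scale, and Pigo, an enzyme of glycosylphosphatidylinositol anchor synthesis, by 0.55, 0.64 and 0.69. Cd99l2 was the 1 gene with calls in both directions. It rose on 3 probe sets (log2 fold changes 0.61, 0.98 and 2.64) and fell on the fourth, at 0.785, 0.725, 0.797 and 0.744 in the KO and 1.04 and 0.961 in the wildtype (log2 fold change -0.39, adjusted p = 0.0499). That fall was lost in 11 of 16 other settings, among them median centring and leaving out any array but KO_591D.

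**Figure D3:**
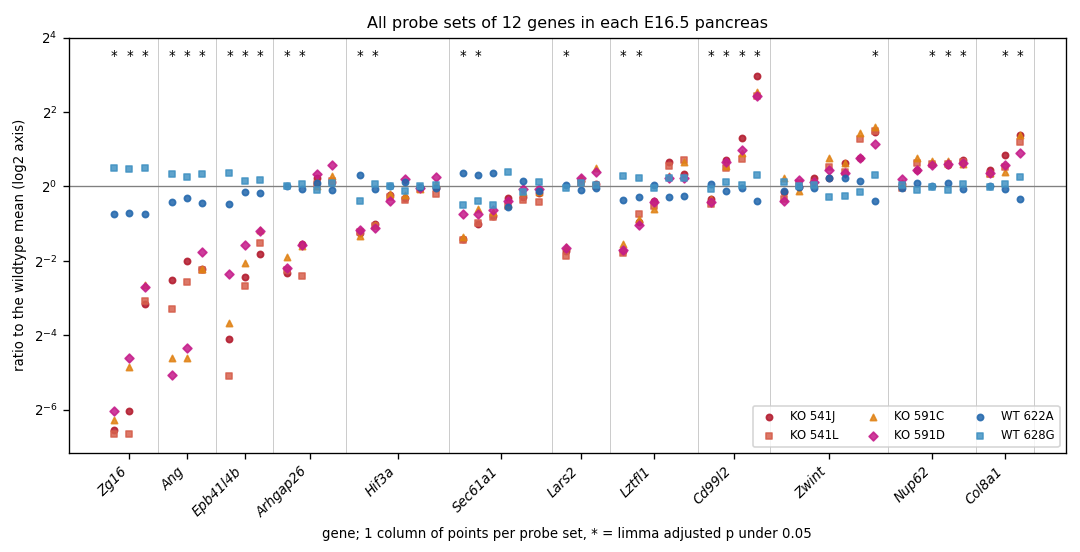
Ratio to the wildtype mean (log2 axis) on every probe set of 12 genes, 1 point per E16.5 pancreas and 1 column per probe set, ordered within a gene by fold change. A star marks a limma adjusted p under 0.05. Zg16, Ang and Epb41l4b are low on every probe set, Zwint passes on 1 of 7, and Cd99l2 passes in both directions.

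Transcripts of ER folding and quality control were lower almost throughout. Of 33 genes measured, 32 were lower, with a median log2 fold change of -0.68. On the probe set taken per gene 11 (33.3%) fell, where 2.15% of all genes did. At least 1 probe set fell in 16, where 584 of all 18193 genes had such a fall. The list's median log2 ratio was -0.89, -0.92, -0.48 and -0.57 in KO_541J, KO_541L, KO_591C and KO_591D and -0.03 and 0.03 in the wildtype. Os9, a lectin that hands misfolded glycoproteins to degradation, stood at 0.543, 0.496, 0.460 and 0.540 in the KO and 1.05 and 0.952 in the wildtype (log2 fold change -0.97, SE 0.12, adjusted p = 0.00215). Derl3, a derlin of the same degradation route, stood at 0.474, 0.477, 0.545 and 0.588 in the KO and 0.880 and 1.12 in the wildtype (log2 fold change -0.94, SE 0.12, adjusted p = 0.00351). Edem2, which trims mannose from misfolded glycoproteins, fell further, to 0.181, 0.149, 0.246 and 0.357 (log2 fold change -2.14, adjusted p = 0.00496). Os9 and Edem2 each have a second probe set that did not pass (log2 fold changes -0.04 and -0.11). The major chaperone Hspa5 (BiP) did not pass on any of 3 probe sets, with log2 fold changes of -0.21, -1.0 and 0.22, nor did Hsp90b1 (-0.71 and -0.23).

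Many ER chaperone genes carry in their promoters a sequence read by the unfolded protein response factors Atf6 and Xbp1, the ER stress element: CCAAT and CCACG with 9 bases between them. After the values had been seen, RefSeq promoter windows (GRCm38.p6, 250 bases before to 50 after a start, found for 14452 of the 18193 genes) were searched for it on both strands. It stood in 20 of 18109 windows (0.110%). Of these, 10 belonged to the folding list, where 10 of 34 windows (29.4%) held it, and none to the lists of translocation and vesicle coats. Of the 20 genes, 7 had a probe set that fell (Acacb, Calr, Derl3, Dnajc3, Ero1b, Pan2 and Syvn1) and 0 had one that rose, where 584 of all 18193 genes had one that fell and 305 one that rose. Of the 10 folding genes that hold it 5 fell on some probe set, as did 16 of the 33 genes of the list, and the other 5 (Canx, Creld2, Hsp90b1, Hspa5 and Pdia6) did not. A match is a description of the letters in a window and not evidence of binding. The stretches around the element are shown for the 5 folding genes among the 7, and for Herpud1, which holds the related arrangement ATTGG, 1 base and CCACG, which shares its last 5 bases with the first (9 of 18109 windows, 0.0497%). Capitals mark the element, which on the opposite strand reads CGTGG, 9 bases and ATTGG.
Calr, chr8:84847035-84847133, minus strand: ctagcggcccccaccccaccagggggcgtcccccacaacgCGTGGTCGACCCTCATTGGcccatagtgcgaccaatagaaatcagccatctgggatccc
Derl3, chr10:75893202-75893300, plus strand: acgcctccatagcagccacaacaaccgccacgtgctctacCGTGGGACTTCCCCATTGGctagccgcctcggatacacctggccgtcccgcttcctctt
Ero1b, chr13:12565642-12565740, plus strand: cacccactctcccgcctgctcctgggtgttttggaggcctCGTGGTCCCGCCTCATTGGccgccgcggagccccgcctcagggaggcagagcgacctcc
Dnajc3, chr14:118937787-118937885, plus strand: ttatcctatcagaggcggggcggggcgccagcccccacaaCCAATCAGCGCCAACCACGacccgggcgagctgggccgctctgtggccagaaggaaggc
Syvn1, chr19:6046492-6046575, plus strand: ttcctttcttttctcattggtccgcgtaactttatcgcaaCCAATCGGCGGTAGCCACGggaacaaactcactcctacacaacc
Herpud1, chr8:94386337-94386427, plus strand: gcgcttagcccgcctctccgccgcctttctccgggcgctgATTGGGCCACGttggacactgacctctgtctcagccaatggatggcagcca

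These 6 genes differed in how many of their probe sets fell. Herpud1, which recruits substrates to ER degradation, fell on both, at 0.178, 0.166, 0.304 and 0.370 in the KO and 1.02 and 0.980 in the wildtype on the first (log2 fold changes -2.06 and -1.15). Ero1b, an oxidase that drives disulfide formation in the pancreas, fell on 2 of 3 (log2 fold changes -1.01 and -1.69, the third -0.22), at 0.212, 0.228, 0.368 and 0.334 in the KO and 0.556 and 1.44 in the wildtype on the lowest. Calr (calreticulin), Dnajc3 (a cochaperone that inhibits Perk) and Syvn1 (the ubiquitin ligase Hrd1) each fell on 1 probe set, of 3, 5 and 2, and on no probe set of these 3 was the log2 fold change above 0. Dnajc3 stood at 0.333, 0.340, 0.641 and 0.562 in the KO and 0.879 and 1.12 in the wildtype on the probe set that fell (log2 fold change -1.14, adjusted p = 0.0348). Calr, Dnajc3, Ero1b, Syvn1, Hspa5 and Hsp90b1 were picked after their values had been seen. The unfolded protein response element (TGACG followed directly by TGG), searched likewise on both strands, stood in 0.933% of all windows, in 1.38% of those of genes with a probe set that fell (digestive enzymes left out) and in 0.338% of those of genes with one that rose. Of the 143 genes that hold it 7 fell and 1 rose. It stood in 15.4% of the windows of the vesicle transport list, in 6 genes of which 1 (Sec16b) fell. The Tcf motif CTTTGAT, searched in the same windows, stood in 2.93% of all of them, in 2.41% of those of genes with a probe set that fell (digestive enzymes left out) and in 3.04% of those of genes with one that rose.

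Transcripts for entry into the ER and N-glycosylation were lower too. Of 34 genes 28 were lower, 7 (20.6%, against 2.15% of all genes) fell, 0 rose, and the median log2 fold change was -0.56. That median ranged from -0.62 to -0.22 on leaving out 1 array. Of the 26 genes with more than 1 probe set, 16 had all probe sets of 1 sign. On at least 1 probe set 16 fell. Dpagt1, the first enzyme of dolichol-linked glycan assembly, stood at 0.460, 0.458, 0.503 and 0.469 in the KO and 1.20 and 0.795 in the wildtype (log2 fold change -1.05, adjusted p = 0.00759). Rpn2, a subunit of the oligosaccharyltransferase, stood at 0.273, 0.359, 0.462 and 0.422 in the KO and 1.22 and 0.779 in the wildtype (log2 fold change -1.39, adjusted p = 0.0181), and Tram1, a protein of the translocon, at 0.409, 0.370, 0.494 and 0.542 (log2 fold change -1.14, adjusted p = 0.0122). Sec61a1, the channel of the translocon, was lower on all 6 of its probe sets, with log2 fold changes of -1.18 to -0.20, and fell on 2. The wildtype values of the lowest probe set were far apart, at 1.29 and 0.710. Without KO_591D 13 of the 34 fell and without WT_622A 2.

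Among 42 genes of COPI and COPII vesicle transport 34 were lower. Of the 42, 11 (26.2%, against 2.15% of all genes) fell and 1 (2.38%, against 0.879%) rose. The list's median log2 fold change was -0.56 and its range -4.58 to 0.86. Of the 24 genes with more than 1 probe set, 16 had all probe sets of 1 sign. Sec16b, which organises ER exit sites, stood at 0.567, 0.515, 0.539 and 0.512 against 1.0 and 0.997 in the wildtype (log2 fold change -0.91, SE 0.13, adjusted p = 0.00527). Tmed3, a p24 cargo receptor, stood at 0.269, 0.268, 0.449 and 0.456 in the KO and 1.08 and 0.923 in the wildtype (log2 fold change -1.52, adjusted p = 0.00623), and its other probe set did not pass (log2 fold change -0.57). Its relative Tmed11 was lowest of the list, at 0.0268, 0.0159, 0.0332 and 0.0895 in the KO. The wildtype values of Tmed11 were far apart, at 0.405 and 1.59. Lman1, a lectin that carries glycoproteins out of the ER, fell on 3 of 5 probe sets and was lower on all (log2 fold changes -0.93 to -0.34). The gene that rose, named after its values were seen, is another p24 protein, Tmed9, at 1.78, 1.84, 1.73 and 1.86 in the KO and 1.12 and 0.882 in the wildtype (log2 fold change 0.86, adjusted p = 0.024). Its other probe set did not pass (log2 fold change 0.45). Fitted on the 6 arrays of E16.5 alone, limma called falls in 1 gene of the folding list, 0 of the translocation list (19 lower at an unadjusted p under 0.05 among its 34 genes in the fit to all arrays) and 2 of the vesicle list.

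The list of the integrated stress response gave no call. Its 16 genes include some targets of Atf4 and do not cover such targets as a group. Slc7a5, Slc3a2 and Cth, which fell, are counted in the amino acid lists below. Of the 16 genes limma called 0, and 4 were lower at an unadjusted p under 0.05. At that level 8.84% of all genes were lower and 9.58% higher. The median log2 fold change was -0.05. Asns, asparagine synthetase, was lower in the KO, at 0.230, 0.0807, 0.512 and 0.542 against 0.998 and 1.0 (log2 fold change -1.90, SE 0.69, adjusted p = 0.18), and Nupr1, a stress-induced nuclear protein abundant in acinar cells, at 0.230, 0.151, 0.440 and 0.716 against 1.06 and 0.943 (log2 fold change -1.63, SE 0.65, adjusted p = 0.226). In both, KO_541J and KO_541L were lower than KO_591C and KO_591D, and the spread among KO was wide.

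Amino acid metabolism was lower in part. Of 17 genes of serine, glycine and one-carbon metabolism 16 were lower and 4 (23.5%, against 2.15% of all genes) fell. The list's median log2 fold change was -0.66. Its median log2 ratios were -1.05 to -0.45 in the KO, though the 2 wildtype medians were also apart at 0.20 and -0.23. Ahcy, which splits S-adenosylhomocysteine, stood at 0.402, 0.414, 0.479 and 0.600 in the KO and 1.22 and 0.776 in the wildtype (log2 fold change -1.06, adjusted p = 0.0235), and Mat1a, which makes S-adenosylmethionine, at 0.181, 0.158, 0.403 and 0.5 against 1.19 and 0.809 (log2 fold change -1.83, adjusted p = 0.0444). Gnmt and Cth, of the same cycle, fell as well (log2 fold changes -3.00 and -2.04). Of 25 genes of amino acid transport and synthesis 5 fell, among them Slc3a2, the heavy chain that pairs with Slc7a5, at 0.499, 0.499, 0.609 and 0.503 against 1.01 and 0.986 (log2 fold change -0.93, adjusted p = 0.0224), Gatm, the first enzyme of creatine synthesis (log2 fold change -1.72, adjusted p = 0.0131), and Asl, argininosuccinate lyase (log2 fold change -1.38, adjusted p = 0.0138). Slc7a5 itself fell as well (log2 fold change -1.32, adjusted p = 0.00335), and the list's median log2 fold change was -0.09. Of 20 aminoacyl-tRNA synthetases 17 were lower, with a median of -0.30, and 2 fell: Lars2 and Farsb, a phenylalanyl-tRNA synthetase subunit, the latter on 1 of 4 probe sets (log2 fold change -0.80, adjusted p = 0.0126, the others -0.22 to 0.06).

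Genes of glycolysis and of the response to low oxygen included 4 falls among 28 (14.3%, against 2.15% of all genes). The list's median log2 fold change was -0.20. Ndrg1, which low oxygen induces, fell on 4 of 5 probe sets and was lower on all. On the one taken for the gene it stood at 0.425, 0.334, 0.429 and 0.494 in the KO and 0.931 and 1.07 in the wildtype (log2 fold change -1.26, SE 0.14, adjusted p = 0.00135). Egln3, a prolyl hydroxylase that marks Hif proteins for degradation, fell on both, with log2 fold changes of -0.81 and -1.78. Pfkfb3, which makes an activator of phosphofructokinase, and Ero1a, an ER oxidase that low oxygen induces, each fell on 1 probe set, of 2 and 3 (log2 fold changes -0.96 and -1.08). Of 31 genes of sterol and fatty acid synthesis 2 fell, Insig1 and Acacb, with a median of -0.05, and Me1, malic enzyme, was on the other side, at 2.68, 1.88, 1.52 and 1.30 in the KO and 0.922 and 1.08 in the wildtype on the probe set taken for it (log2 fold change 0.83, adjusted p = 0.0701) and past the limit on its other one (log2 fold change 0.68, adjusted p = 0.0332).

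**Figure D4:**
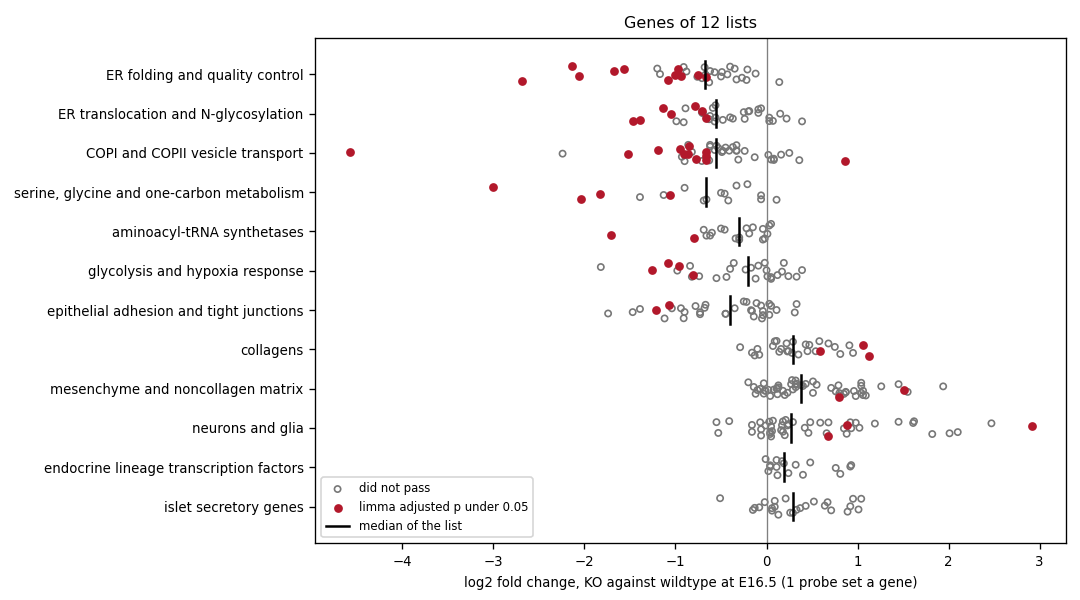
Log2 fold change, KO against wildtype at E16.5, of each gene of 12 lists on 1 probe set a gene. Filled red points passed at a limma adjusted p under 0.05, open points did not, and the black bar is the list's median, from -0.68 in the ER folding list to 0.38 in the mesenchyme list.

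Genes of epithelial adhesion and of ducts were lower on balance, with few calls. Of 21 progenitor and endoderm transcription factors, by contrast, 11 were higher and 10 lower. Among these 3 (14.3%) fell, and their list's median log2 fold change was 0.0. Of 34 genes of epithelial adhesion and tight junctions 28 were lower and 2 (5.88%) fell, with a median log2 fold change of -0.40 and 6 genes with a fall on some probe set, where 2.15% of all genes fell on the probe set taken. Without KO_591D 5 of the 34 fell, and without KO_541J or KO_541L 0. Spint2, a membrane serine protease inhibitor, fell on both probe sets (log2 fold changes -1.07 and -1.22), and Esrp2, an epithelial splicing regulator, on 1 of 2, at 0.330, 0.312, 0.534 and 0.637 in the KO and 1.0 and 0.996 in the wildtype (log2 fold change -1.21, adjusted p = 0.0433). Cdh1, which encodes the E-cadherin that β-catenin binds, was at 0.234, 0.259, 0.531 and 0.432 in the KO and 1.30 and 0.696 in the wildtype (log2 fold change -1.47, SE 0.43, adjusted p = 0.0971). All 4 KO were below both wildtype, which were themselves far apart. Of 20 duct genes 13 were lower and 2 fell, with a median log2 fold change of -0.41 that ranged from -0.65 to -0.10 on leaving out 1 array. Krt18, a keratin of simple epithelia, was at 0.424, 0.357, 0.614 and 0.747 in the KO and 1.07 and 0.932 in the wildtype (log2 fold change -0.96, adjusted p = 0.114), and Krt19, a duct keratin, had a log2 fold change of -0.40 (adjusted p = 0.665).

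A few genes shared with gut epithelium fell. Of 21 intestine and stomach genes 3 (14.3%) fell while the list's median was 0.04. Vil1, which bundles the actin of microvilli, stood at 0.367, 0.385, 0.427 and 0.539 in the KO and 0.896 and 1.10 in the wildtype (log2 fold change -1.23, SE 0.16, adjusted p = 0.00356). Tff2, a trefoil peptide of stomach mucus, stood at 0.567, 0.580, 0.658 and 0.696 against 0.894 and 1.11 (log2 fold change -0.67, adjusted p = 0.016), and Agr2, an ER disulfide isomerase of mucous cells, fell on both probe sets (log2 fold changes -1.55 and -1.23). Egf, a growth factor, was the only one of 59 genes of Fgf, Egf, Notch, hedgehog and TGF-beta signaling (1.69%, against 2.15% of all genes) to fall on the probe set taken for it, at 0.290, 0.284, 0.331 and 0.400 against 0.619 and 1.38 (log2 fold change -1.52, adjusted p = 0.0141). Without KO_591D 7 of the 59 rose and 2 fell. Among 9 acinar transcription factors Rbpjl, a subunit of the PTF1 complex, and Gata4 fell, each on 1 of 2 probe sets (log2 fold changes -1.14 and -1.36), and Ptf1a varied from 0.0911 in KO_541L to 0.656 in KO_591D (log2 fold change -1.74, SE 0.84, adjusted p = 0.331).

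Genes of the tissue around the epithelium were higher on balance, again with few calls. Of 55 genes of mesenchyme and noncollagen matrix 46 were higher and 2 (3.64%) rose, with a median log2 fold change of 0.38, and 26 were higher at an unadjusted p under 0.05 against 1 lower. Of all genes 57.5% were higher, 0.879% rose and 9.58% were higher at an unadjusted p under 0.05. The list's median log2 ratio was 0.60 in KO_541J, 0.63 in KO_541L, 0.24 in KO_591C and 0.20 in KO_591D and 0.04 and -0.05 in the wildtype. Lum, the proteoglycan lumican, stood at 3.58, 3.22, 2.76 and 1.96 in the KO and 0.828 and 1.17 in the wildtype (log2 fold change 1.51, SE 0.27, adjusted p = 0.016). Thy1, a surface protein of fibroblasts and neurons, stood at 2.12, 1.83, 1.70 and 1.39 against 1.01 and 0.993 (log2 fold change 0.80, adjusted p = 0.0203). Vim, vimentin, which did not pass, was at 2.21, 2.30, 1.53 and 1.15 against 0.979 and 1.02 (log2 fold change 0.79, adjusted p = 0.108). In each of these KO_591D was the lowest KO. Without KO_591D 20 of the 55 rose, and without WT_622A 0.

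Of 29 collagens 24 were higher and 3 (10.3%) rose, where 57.5% of all genes were higher and 0.879% rose. Their median log2 fold change was 0.29, and 11 collagens were higher at an unadjusted p under 0.05. Col5a1, a chain of type V collagen, stood at 2.58, 2.89, 1.99 and 1.49 in the KO and 0.975 and 1.02 in the wildtype (log2 fold change 1.12, SE 0.21, adjusted p = 0.0229), but its other 2 probe sets did not pass (log2 fold changes 0.16 and 0.39). Col8a1, a short-chain collagen, rose on 2 of 3 (log2 fold changes 0.59 and 1.24) and Col3a1, a fibrillar collagen, on 1 of 2 (log2 fold change 1.06, adjusted p = 0.0488). Without KO_591D 8 collagens rose, without KO_591C 2, without KO_541L 1 and without KO_541J 0. These collagen counts do not include the fits without a wildtype array, which keep only 1. On the 6 arrays of E16.5 alone 0 rose, and after median centring 1. Of 39 Wnt ligands, receptors and secreted modulators 29 were higher and 3 (7.69%) rose, beside the same 57.5% and 0.879% of all genes. In each of the 3 the other probe sets were higher without passing: Wnt4, a ligand, at 1.94, 1.93, 1.68 and 1.49 against 0.921 and 1.08 (log2 fold change 0.81, adjusted p = 0.0269), Dkk3, a Dickkopf-family protein (log2 fold change 0.71, adjusted p = 0.0333), and Fzd2, a receptor (log2 fold change 0.53, adjusted p = 0.049). Without KO_591D 8 of the 39 rose, without KO_591C 1, and without any other single array 0.

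Of 48 genes of neurons and glia 39 were higher and 3 (6.25%) rose, where 57.5% of all genes were higher and 0.879% rose. The list's median log2 fold change was 0.26. In it 1 pancreas stood out, KO_541J, with a list median of 0.69 against 0.17 to 0.23 in the other KO. Elavl4, a neuronal RNA-binding protein, stood at 2.10, 2.18, 1.91 and 1.33 in the KO and 0.985 and 1.01 in the wildtype (log2 fold change 0.88, adjusted p = 0.0412). Gfra3, a receptor of sensory and sympathetic neurons, rose by less (log2 fold change 0.68, adjusted p = 0.0417). Nefl, a neurofilament, rose with a wide spread, at 22.3, 11.6, 4.42 and 2.38 in the KO and 1.27 and 0.732 in the wildtype (log2 fold change 2.91, SE 0.69, adjusted p = 0.0488). Without KO_591D 16 of the 48 rose, without WT_622A 1, and without any other single array 0. Of 35 endothelial genes limma called 0 (8 higher and 0 lower at an unadjusted p under 0.05), with a median of 0.14, and Pecam1, which marks endothelium, was at 1.03 to 1.21 in the KO. Without KO_591D 5 of the 35 rose. Among 32 macrophage and leukocyte genes 21 were higher, with a median log2 fold change of 0.12. Of these 32, 1 rose and 1 fell (3.12% each, against 0.879% and 2.15% of all genes). Csf1r, the receptor of the macrophage growth factor, rose on 1 of 3 probe sets (log2 fold change 1.20, adjusted p = 0.0383), while C1qa, a complement subunit that macrophages make, stood at 0.497, 0.439, 0.494 and 0.547 against 1.05 and 0.952 (log2 fold change -1.02, adjusted p = 0.00532). The rise of Csf1r was lost on the 6 arrays of E16.5 alone, after median centring and without KO_541J, KO_541L or KO_591C. The fall of C1qa held in each of these settings and was lost after quantile normalization.

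**Figure D5:**
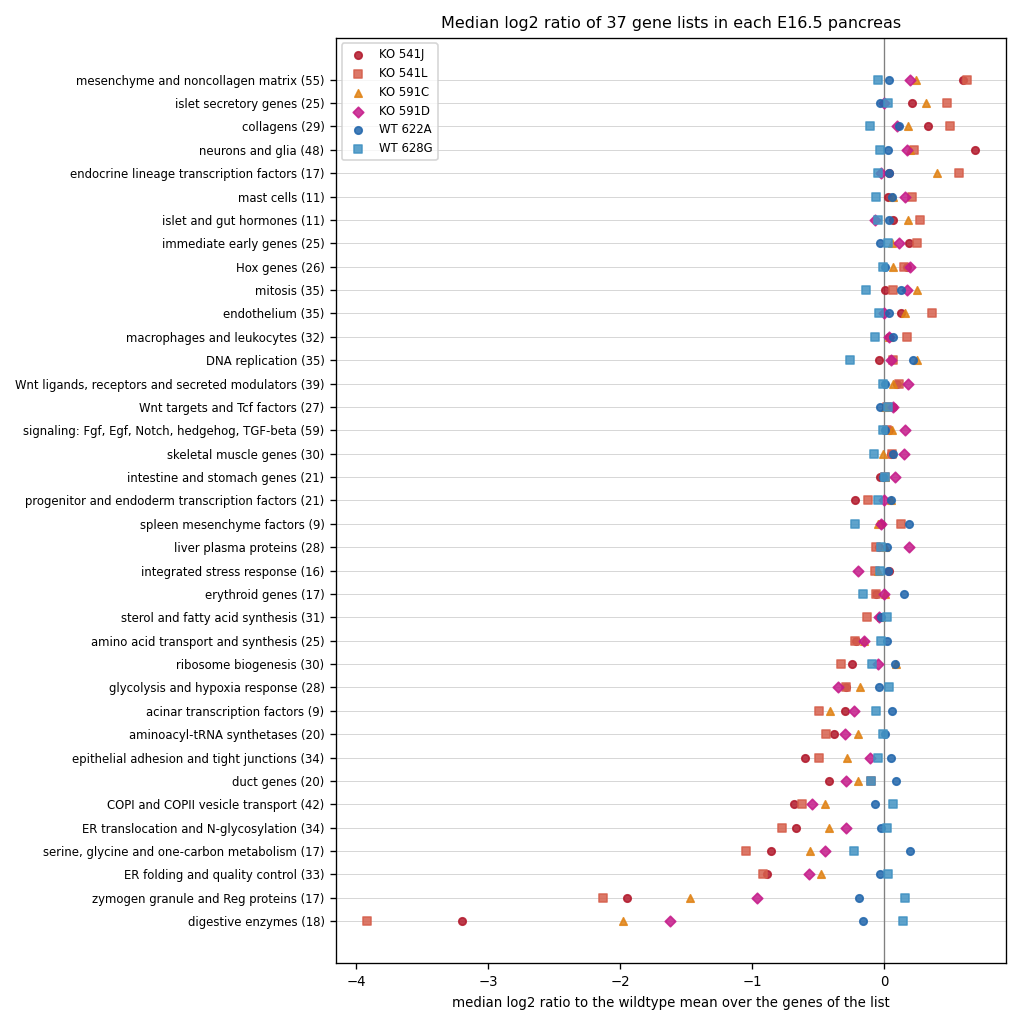
Median log2 ratio of each of 37 gene lists in each E16.5 pancreas, with the number of genes measured in brackets. The enzyme, zymogen granule and ER lists lie to the left of the wildtype in all 4 KO, further in KO_541J and KO_541L. The mesenchyme list lies to the right, at 0.20 to 0.63, and the neuron list at 0.17 to 0.69.

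Endocrine genes gave no call on the probe set taken per gene, and 1 on another, in the islet secretory gene Syt7, a calcium sensor of exocytosis (log2 fold change 1.25, adjusted p = 0.0335, named after its values were seen). Without KO_591D, 2 of the endocrine transcription factors and 3 of the islet secretory genes rose. Among all genes 57.5% were higher, and at an unadjusted limma p under 0.05 9.58% were higher and 8.84% lower. Of 17 transcription factors of the endocrine lineage 16 were higher, with a median log2 fold change of 0.19. In this list limma called 0, and 3 were higher at an unadjusted p under 0.05. The list's median log2 ratio was 0.57 in KO_541L and 0.40 in KO_591C but 0.04 in KO_541J and -0.02 in KO_591D, so this was not shared by the 4 KO. Isl1, a homeobox factor of endocrine cells, was at 2.33, 3.05, 1.80 and 1.02 against 0.921 and 1.08 (log2 fold change 0.93, adjusted p = 0.183). Of 25 islet secretory genes 20 were higher, with a median of 0.29 and 5 higher and 1 lower at an unadjusted p under 0.05. Chgb, a granin of secretory granules, was at 1.78, 3.05, 2.60 and 1.26 against 0.961 and 1.04 (log2 fold change 1.04, adjusted p = 0.0714). Of 11 hormones limma called 0 (1 higher at an unadjusted p under 0.05), and Gip, an incretin, was above both wildtype in each KO, at 1.73, 1.51, 2.04 and 1.55 (log2 fold change 0.76, adjusted p = 0.107).

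Neither Ctnnb1 nor the targets of the Wnt pathway passed the test. On the 3 probe sets of Ctnnb1 the log2 fold changes were -0.05, -0.51 and -0.35. On the second the KO stood at 0.670, 0.709, 0.662 and 0.672, below both wildtype at 1.27 and 0.731 (adjusted p = 0.152). Where these probe sets lie relative to the deleted exons is not given in the sources used here, so they do not check the deletion. Of 27 Wnt targets and Tcf factors limma called 0 (3 higher and 2 lower at an unadjusted p under 0.05), with a median log2 fold change of 0.07. Axin2, the general target of this pathway, was at 1.06, 1.03, 1.09 and 1.28 against 0.889 and 1.11 (log2 fold change 0.16, adjusted p = 0.66). Bambi, a pseudoreceptor of TGF-beta and a target of Wnt in some cells, was at 2.57, 3.56, 2.18 and 1.27 against 1.08 and 0.922 (log2 fold change 1.17, adjusted p = 0.0782). Lower were Myc, a growth regulator, at 0.452, 0.380, 0.606 and 0.577 against 1.22 and 0.776 (log2 fold change -0.98, adjusted p = 0.136), and Lgr4, an R-spondin receptor, at 0.454, 0.480, 0.698 and 0.659 against 1.10 and 0.897 (log2 fold change -0.82, adjusted p = 0.132). Without KO_591D 2 of the 27 rose.

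Growth and patterning genes gave scattered calls. Of 35 DNA replication genes 3 (8.57%, against 0.879% of all genes) rose: Gins3, Cdc45 and Pole2, subunits of the replicative helicase and of polymerase epsilon. Their log2 fold changes were 0.50, 0.69 and 0.90 (adjusted p = 0.0322, 0.0342 and 0.0383 in limma). Pole2 stood at 1.73, 1.67, 2.05 and 1.96 in the KO and 0.843 and 1.16 in the wildtype. On the 6 arrays of E16.5 alone, after median centring, or on leaving out any array but KO_591D, 0 of the 35 rose. Each of these genes has a second probe set that did not pass (log2 fold changes -0.05, -0.06 and 0.09). The list's median was 0.22 in WT_622A and -0.26 in WT_628G, a span wider than that of the 4 KO, at -0.04 to 0.25. Of 35 mitosis genes limma called 0 (4 higher and 0 lower at an unadjusted p under 0.05). Of 25 immediate early genes 2 (8.0%, against 0.879% of all genes) rose, the zinc finger factors Egr2 and Egr1, at 2.01, 1.82, 1.69 and 3.18 (log2 fold change 1.07, adjusted p = 0.0238) and 1.41, 1.65, 1.89 and 2.19 (log2 fold change 0.82, adjusted p = 0.0474), highest in KO_591D. On the 6 arrays of E16.5 alone 0 of the 25 rose. After median centring, or without KO_541J, KO_541L or KO_591C, 1 rose, and without KO_591D 4. Fits that leave out a wildtype array, and so keep only 1, are not part of these immediate early counts. Of 26 Hox genes 24 were higher, against 57.5% of all genes, with a median log2 fold change of 0.15. There was no call on the probe set taken per gene, while 5 rose without KO_591D. At an unadjusted p under 0.05 in limma 6 were higher and 0 lower, against 9.58% and 8.84% of all genes. Hoxb4 rose on its other probe set, at 1.68, 2.15, 1.70 and 1.66 against 1.02 and 0.985 (log2 fold change 0.84, adjusted p = 0.0155).

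Several of the genes above lie within 50 measured genes of Ctnnb1 on chromosome 9 in the gene order of GRCm38.p6. Of the 50 measured genes before it 2 rose and 3 fell on some probe set, and of the 50 after it 0 rose and 5 fell, where 4.88% of all genes had such a call. On the side after Ctnnb1 the genes with a call are Lars2, Limd1, Lztfl1, Fyco1 and 2010315B03Rik, which all fell on some probe set. Counted in measured genes from Ctnnb1, these lie at places 36, 37, 41, 43 and 50. On the side before it Stt3b, Golga4 and Xylb fell, at places -41, -31 and -20. Tgfbr2 and Itga9 rose there, at -39 and -30. No gene nearer than Xylb on that side or Lars2 on the other had a call. Limd1, named after its values were seen, stood at 0.505, 0.495, 0.471 and 0.454 in the KO and 1.05 and 0.947 in the wildtype on 1 of 2 probe sets (log2 fold change -1.05, adjusted p = 0.000525), with -0.01 on the other, and Lars2 at 0.301, 0.275, 0.326 and 0.320 against 1.02 and 0.979 on 1 of 3, with 0.17 and 0.24 on the others. Both copies of the floxed allele come with their neighbouring sequence, so that an effect of that sequence and of the loss of β-catenin cannot be told apart here.

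The KO effect at E16.5 differed from that at E14.5 on 157 probe sets (0.349%), tested as the difference between both effects in the same limma fit. With a trended and robust variance 14 passed. Among the genes above, Os9 and Derl3 of the ER lists differed, with log2 KO effects of 0.40 and 0.15 at E14.5 against -0.97 and -0.94 at E16.5 (adjusted p = 0.00671 and 0.0268), and so did Pole2 and Cdc45, with -0.69 and -0.52 against 0.90 and 0.69 (adjusted p = 0.0423 and 0.0385). The median KO effect of the ER folding list was 0.01 at E14.5.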

How the data were processed

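The authors deposited RMA values of 12 Affymetrix MOE430 2.0 arrays as linear ratios, in which the average of that day's wildtype pair is 1. The deposited ratios of each wildtype pair sum to 2 within 3e-07, and neither abundance nor the difference between days can be read from them. Log2 ratios of 45037 of 45101 probe sets (64 control probe sets left out) went into limma 3.58.1 (R 4.3.3, statmod 1.5.0), fitted on all 12 arrays in 4 groups of genotype and day, with 8 residual degrees of freedom. The script was tested on simulated data. P-values measure only the spread between these arrays, whose number limits the precision. Symbols came from the platform annotation, updated through Entrez identifiers to GRCm38.p6: 34945 probe sets had 1 symbol, 932 several and 9160 none. For each of 37 gene lists 1 probe set a gene was taken by its name. Named genes were Ctnnb1, the 15 rises and 15 falls with the smallest p, genes with 3 or more probe sets that all passed, genes with calls in both directions, and per list up to 4 members by p and its defining markers. Cdh1, Krt19, Vim, Pecam1 and Axin2 were picked after values had been seen, as were the genes so marked in the text. Members and lists were chosen with earlier results of these data known, and the promoter motifs were searched after values had been seen. Tables and figures used Python 3.11.15, pandas 2.3.3, numpy 2.4.6 and matplotlib 3.10.9. Alternatives changed the arrays fitted, the variance model, scaling, array weights, a block for the number in the array name, the probe sets, a floor at 0.05, the call rule and the test.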

Additional observations from a re-analysis of the deposited data

Results flagged for a closer look

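In 12 of 237 groups of 4 KO values examined, 1 pancreas stood apart by Dixon's test, where chance gives 1 in 20, or 11.8. The gap to the nearest KO as a share of the range was 0.907 for Ang, 0.866 for Agr2 and 0.840 for Cyp2c70, with KO_591D highest, and 0.859 for Orc6 and 0.845 for Hoxb2, with KO_591D lowest. It was 0.962 for Slc3a2, with KO_591C highest, and 0.863 for Iars and 0.839 for Cdk1, with KO_541J lowest. Among list medians the share was 0.898 for neurons and glia, with KO_541J highest, 0.996 for macrophages and leukocytes and 0.831 for spleen mesenchyme factors, with KO_541L highest, and 0.831 for sterol and fatty acid synthesis, with KO_541L lowest.

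For 34 of 200 probe sets of named genes, those taken by name or with the smallest p, the log2 KO effect at E16.5 differed from that at E14.5 by limma's test of the difference, 24 downward and 10 upward. Over all 374 probe sets of these genes 45 differed, and over all probe sets 0.349%. Most of these genes were named for a small p at E16.5, so the share is not one of genes at large. Among genes of the zymogen granule and the ER route the difference was -2.87, -6.63 and -6.04 on the 3 probe sets of Zg16 (the last not among the 34), -3.36 for Cuzd1, -2.09 for Rab3d, -1.38 for Os9, -1.09 for Derl3, -1.91 for Ero1b, -1.76 for Tmed3 and -1.41 for Surf4. Among metabolic and low-oxygen genes it was -3.20 for Gnmt, -2.76 for Aldh1l1, -1.68 for Gstt2, -1.58 for Slc16a6, -1.27 for Hif3a, -1.21 for Ndrg1 and -1.09 for Egln3. It was -2.31 for Arhgap26, -2.12 for Ang, -1.80 for 4933438K21Rik, -1.72 for Tma16, -1.70 for Sostdc1, -1.38 for C1qa, -1.37 for Vil1 and -1.36 for Fam234a. Upward it was 2.26 for Cd99l2, 1.71 for Zwint, 1.59 for Pole2, 1.20 for Cdc45, 1.04 for Tsn, 1.01 for Cacng5, 0.92 for Pabpn1, 0.92 for Nup62, 0.90 for Rpa1 and 0.74 for Dnajc8.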

How the results depend on the processing

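Among the probe sets of named genes taken by name or with the smallest p, no call changed sign under the alternatives run. Some list medians did change sign. That of DNA replication was 0.11 and ranged from -0.17 to 0.43 on leaving out 1 array. The count of probe sets that rose and fell was 13 and 146 with the 6 arrays of E16.5 alone, 7 and 79 with a trended and robust variance, 10 and 61 after quantile normalization, 200 and 773 after median centring and 1048 and 1332 with array weights. Leaving out 1 array gave 73 to 1572 that rose and 331 to 1290 that fell, the highest counts without KO_591D and the lowest without KO_541J. The methods' t-test, run here on all 45037 probe sets without the filter by fold that preceded it in the study, gave 2694 and 2845 unadjusted and 0 and 0 after Benjamini-Hochberg adjustment. Of the 15 leading rises 6 passed on the 6 arrays of E16.5 alone, 4 with a trended and robust variance and 0 after quantile normalization, and of the 15 leading falls 15, 11 and 7. The difference between days passed on 14 probe sets with a trended and robust variance. Another probe set fell too in 18.5% of genes without _x_at and _s_at probe sets. The cause of these changes was not tested. The number in the array name as a random block (consensus correlation -0.0876) gave 439 and 938. No paired analysis was possible because the wildtype and KO arrays share no number. Of the list medians under other settings 350 stayed within the spread of the KO and 68 moved. With 2 wildtype arrays, the difference between them limits every value above.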
